A study of Mus musculus with 17 samples.

Results

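The genes described here are the chemokines and chemokine receptors of the panel outside the CXCR2 group. They were every entry whose symbol began with Ccl, Ccr, Cxcl, Cxcr, Xcl or Xcr followed by a digit, or with Cx3c, apart from Cxcl1, Cxcl2, Cxcl3, Cxcl5, Cxcr2 and Ccr3. The choice used names and no measured value, though it was made with earlier results of these data known. It took 33 of the 988 genes, 21 ligands and 12 receptors. They were read in 6 tumors and 3 preneoplastic colon samples of Kit-B6 mice (C57BL/6, with normal Kit) and in 6 tumors and 2 preneoplastic samples of Kit-W/sh mice (W-sash, an inversion near Kit that leaves adults short of mast cells). All animals received azoxymethane, a colon carcinogen, by intraperitoneal injection, so no sample was free of it. Tumors came from postnatal week 32 after 6 injections and preneoplastic colon from week 14 after 3. Stage is therefore tied to age, dose and tissue, which cannot be told apart. W-sash mice also lack other Kit-dependent cells, so the genotype is not a loss of mast cells alone.

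Chemokines are small secreted proteins that bind receptors on leukocytes and direct where those cells move. Inflammatory ligands such as Ccl2 and Ccl3 are made on demand by macrophages and activated tissue and recruit monocytes, T cells and granulocytes. Homeostatic ligands such as Cxcl12, Cxcl13, Ccl19 and Ccl25 place lymphocytes in lymphoid tissue and in the gut wall. In the colon they meet a mucosa that holds resident macrophages, plasma cells and lymphoid follicles, so their levels depend on which cells a piece of tissue contains.

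For preneoplastic colon, libraries held 616009 to 703549 counts (Kit-B6) and 621141 to 815973 (Kit-W/sh), and for tumors 616554 to 1399902 (Kit-B6) and 1049408 to 1262171 (Kit-W/sh). Levels are CPM, counts scaled to a common library size, and 3 counts, the limit that a count of 0 allows, came to between 2.14 and 5.50 CPM. Amplicon lengths were not given, so levels are compared between samples and never between genes. Of 10 epithelial markers listed, 2 were measured. Epcam, the epithelial adhesion protein, lay between 22175 and 34599 CPM in every library, while Car4, a carbonic anhydrase of mature colonocytes, fell by 3.71 on the log2 scale in Kit-B6 (adjusted p = 0.0176) and fell by 5.30 in Kit-W/sh tumors (adjusted p = 0.00450). Their sum was 50704 to 122979 CPM (Kit-B6) and 88889 to 89655 (Kit-W/sh) in preneoplastic colon, against 25383 to 49434 and 24478 to 30378 in tumors, a fall that ran alongside every stage result, and its part in them was not tested. The library labelled Kit-W/sh tumor 2 went against its label: Cpa3, a mast cell protease, stood at 459.6 CPM there and at 9.81 or less in the other Kit-W/sh tumors. Values without it are given beside the results it moves most, and the other changes of direction stand in the closing section. It held the highest level among the 6 Kit-W/sh tumors for 12 of the 23 chemokine genes tested in tumors. Among the 6 Kit-B6 tumors, tumor 4 held the lowest level for 12 and tumor 2 the highest for 9. The labels did not state that samples of a group came from separate mice, and the deposited tables of Kit-B6 tumors 4 and 5 carry names that differ in the last number alone, so these may be tumors of 1 mouse. P-values reflect only how much these samples varied.

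Against preneoplastic colon, tumors of both genotypes held more transcript of the macrophage ligands Ccl3 and Ccl4 and of the monocyte attractant Ccl2, and less of Ccl5, Xcl1 and Cxcl12. In Kit-B6, 8 of the 29 genes tested passed the threshold (adjusted p under 0.05), 4 higher and 4 lower in tumors. That is 27.6%, beside 41.1% of all genes tested (22.2% higher and 18.9% lower). In Kit-W/sh, 10 of 29 passed, 6 higher and 4 lower, which is 34.5% beside 39.7% of all genes (20.9% higher and 18.8% lower). The 6 genes named above passed in both genotypes and in the same direction, which is 75% of the Kit-B6 calls and 60% of the Kit-W/sh calls. Other calls included Ccr10 and Cxcl15 in Kit-B6, and Cx3cl1, Ccl7 and Ccr2 in Kit-W/sh. Median log2 fold changes of the genes tested were -0.24 in Kit-B6 and 0.43 in Kit-W/sh, beside 0.00 and 0.08 for all genes. Groups did not overlap for 1 gene higher and 2 lower in Kit-B6 tumors (29.3% of all genes did not overlap, 16.2% higher and 13.1% lower) and for 8 higher and 6 lower in Kit-W/sh tumors (58.2% of all genes, 29.6% and 28.7%).

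**Figure D1:**
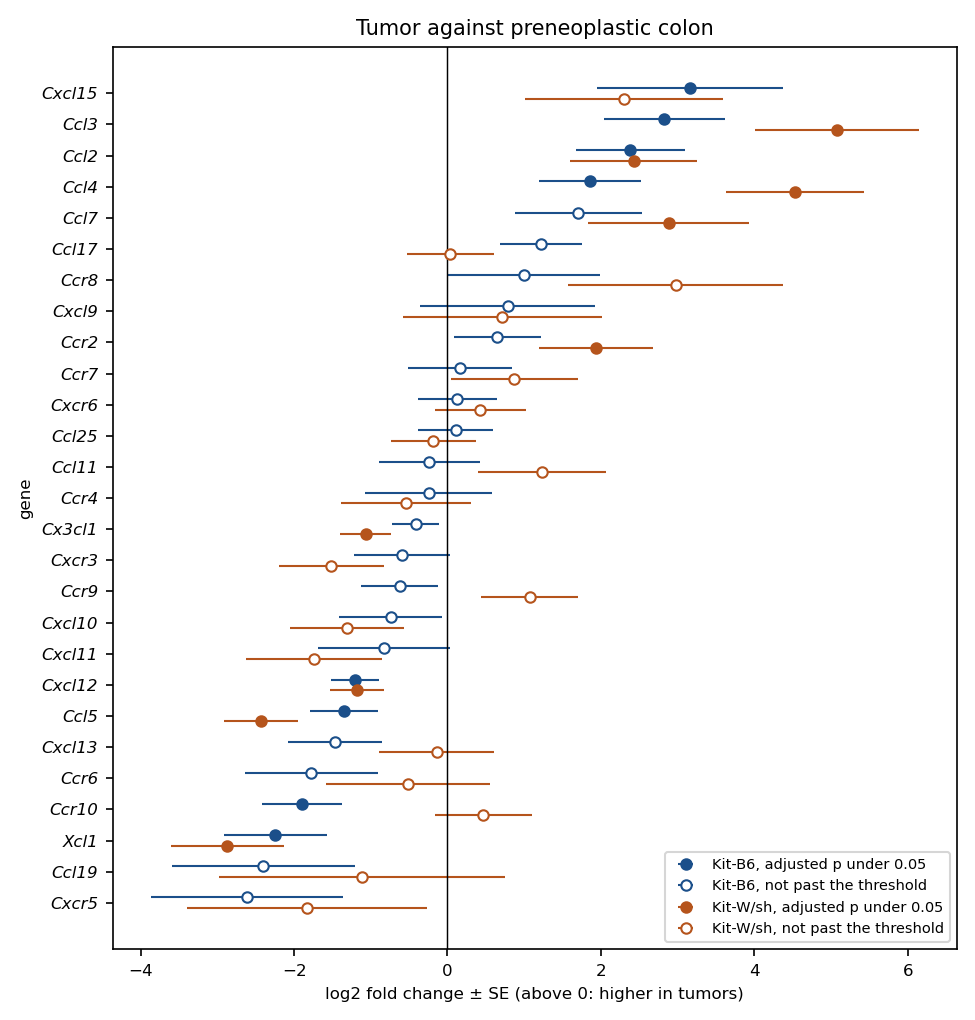
Log2 fold change, tumor against preneoplastic colon, of chemokine genes tested (y axis), with bars of 1 standard error, in Kit-B6 and Kit-W/sh. Filled points passed the threshold: Ccl3 lies at 2.83 and 5.08 and Xcl1 at -2.25 and -2.87. Cxcr1, with 0 counts in all preneoplastic samples, is not drawn.

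Ccl3 and Ccl4, the macrophage inflammatory proteins 1 alpha and 1 beta, are secreted by activated macrophages, neutrophils and lymphocytes. Ccl3 stood at 18.3, 45.4 and 15.5 CPM in Kit-B6 preneoplastic colon and at 36, 149 and 395 (lowest, median, highest) in Kit-B6 tumors. In Kit-W/sh it read 3.62 and 27.5 CPM in preneoplastic colon and 244, 463 and 1266 in Kit-W/sh tumors. Only the Kit-B6 groups overlapped, through tumor 4, the lowest tumor. The log2 rise was 2.83 ± 0.79 (SE, adjusted p = 0.00998) in Kit-B6 and 5.08 ± 1.07 (adjusted p = 0.00205) in Kit-W/sh. The Kit-B6 rise was 3.47 without preneoplastic sample 2, and the call ended without preneoplastic sample 3 (2.55, adjusted p = 0.0504). In Kit-W/sh it was 4.32 without preneoplastic sample 1 and 7.21 without sample 2, and passed in each case.

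Ccl4 read 11.0, 12.7 and 15.5 CPM in Kit-B6 preneoplastic colon and 9.04 and 8.26 in Kit-W/sh. Kit-B6 tumors reached 9.26, 52.1 and 79.0 (lowest, median, highest) and Kit-W/sh tumors 84.5, 154 and 448. The 6 Kit-W/sh tumors all lay above every other sample. The log2 rise from preneoplastic colon was 1.86 ± 0.67 (adjusted p = 0.0339) in Kit-B6 and 4.53 ± 0.90 (adjusted p = 0.00138) in Kit-W/sh. The Kit-B6 call ended without tumor 1, tumor 6 or any preneoplastic sample (1.67 to 2.01, adjusted p 0.0579 to 0.0934) and in a fit of Kit-B6 libraries alone (1.86, adjusted p = 0.0553), while the Kit-W/sh call held without each library in turn. The difference between the 2 rises was 2.67 ± 1.03 and did not pass (adjusted p = 0.66).

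Ccl5, also called RANTES, is stored and released mainly by cytotoxic T cells, NK cells and platelets. It was at 156, 194 and 96.1 CPM in Kit-B6 and 362 and 186 in Kit-W/sh preneoplastic colon. Tumors held 34.7, 45.0 and 134 (lowest, median, highest) in Kit-B6 and 30.2, 46.9 and 89.4 in Kit-W/sh. Kit-B6 tumor 2, at 134, was the only tumor to reach into the preneoplastic range. Ccl5 fell by 1.35 ± 0.44 on the log2 scale in Kit-B6 (adjusted p = 0.0232) and fell by 2.43 ± 0.48 in Kit-W/sh (adjusted p = 0.00125). The Kit-B6 call ended without preneoplastic sample 1 or 2 (-1.28 to -1.10, adjusted p 0.0685 to 0.113) and with unscaled library totals (-1.06, adjusted p = 0.0721), and the Kit-W/sh call without preneoplastic sample 1 (-1.87, adjusted p = 0.0512). Ccl5 thus moved in the opposite direction to Ccl3 and Ccl4, although RefSeq's mouse gene table places these 3 genes in 1 run with 2 other genes between them.

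**Figure D2:**
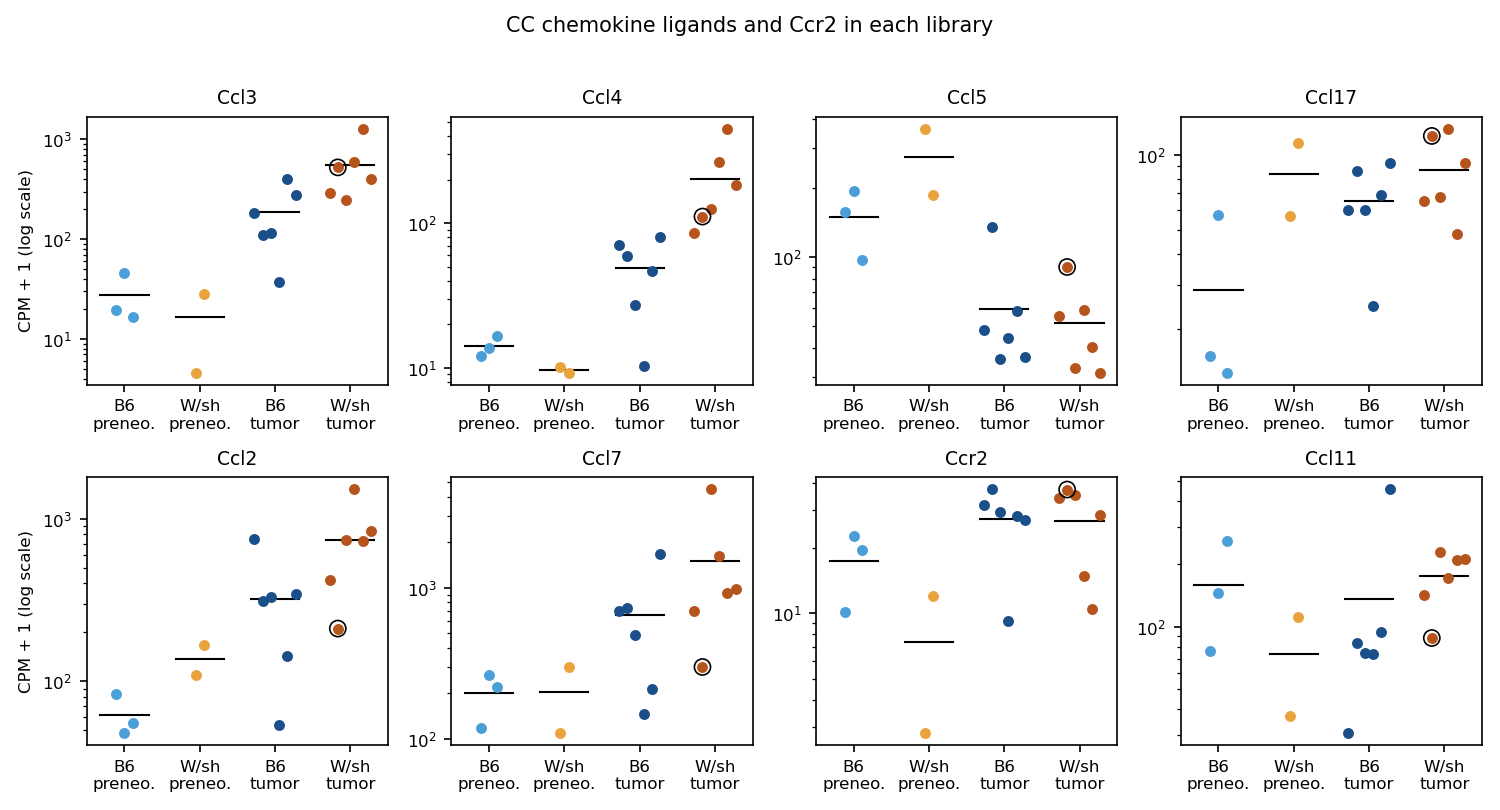
CPM + 1 on a log axis for Ccl3, Ccl4, Ccl5, Ccl17, Ccl2, Ccl7, Ccr2 and Ccl11 in each of the 17 libraries, by group. Lines are group means and the ring marks the library labelled Kit-W/sh tumor 2. Ccl4 in the 6 Kit-W/sh tumors lies at 84.5 CPM or above, higher than in any other sample.

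Ccl2 and Ccl7 are monocyte chemoattractant proteins that act on Ccr2 and draw monocytes out of the blood. Ccl2 was at 82.5, 47.2 and 54.2 CPM in Kit-B6 and 109 and 165 in Kit-W/sh preneoplastic colon. It was at 52.5, 318 and 743 (lowest, median, highest) in Kit-B6 tumors and 209.7, 731 and 1509.9 in Kit-W/sh tumors. Only Kit-B6 tumor 4 fell among the preneoplastic values of its genotype. Ccl2 rose by 2.38 ± 0.71 on the log2 scale in Kit-B6 (adjusted p = 0.0148) and by 2.43 ± 0.83 in Kit-W/sh (adjusted p = 0.0298). These calls ended without Kit-B6 preneoplastic sample 2 or 3 (2.24 to 2.30, adjusted p 0.0563 to 0.0608) and without either Kit-W/sh preneoplastic sample (2.16 to 2.77, adjusted p 0.111 to 0.202).

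Ccl7 read 117, 265 and 220.1 CPM in Kit-B6 and 109 and 296 in Kit-W/sh preneoplastic colon, and 144, 594 and 1663 in Kit-B6 tumors against 298, 949.9 and 4468 in Kit-W/sh tumors (lowest, median, highest). Kit-W/sh tumor 3 alone reached 4468, and the next was 1623. The log2 change was 2.88 ± 1.05 in Kit-W/sh (adjusted p = 0.0388) and 1.71 ± 0.83 in Kit-B6 (adjusted p = 0.104). The Kit-W/sh call ended without tumor 3 (2.16, adjusted p = 0.0592), tumor 4 or either preneoplastic sample, over a range of 2.16 to 3.79 with adjusted p 0.0528 to 0.252.

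Ccr2, the receptor of classical monocytes, stood at 9.17, 21.8 and 18.6 CPM in Kit-B6 and 1.81 and 11.0 in Kit-W/sh preneoplastic colon. Tumors held 8.23, 27.7 and 36.3 (lowest, median, highest) in Kit-B6 and 9.42, 30.3 and 36.2 in Kit-W/sh, so both genotypes overlapped between stages. The log2 change was 1.93 ± 0.74 in Kit-W/sh (adjusted p = 0.0481) and 0.65 ± 0.57 in Kit-B6 (adjusted p = 0.362). The Kit-W/sh value was 1.22 (adjusted p = 0.338) without preneoplastic sample 1 and 3.75 (adjusted p = 0.0430) without sample 2. The call also ended without tumor 1, 3 or 6 or the library labelled Kit-W/sh tumor 2 (1.81, adjusted p = 0.0644), with no filter on low counts (1.94, adjusted p = 0.0516) and in a fit of Kit-W/sh libraries alone (1.92, adjusted p = 0.0719). Ccl11, or eotaxin, which attracts eosinophils and neighbours Ccl2 and Ccl7 in the genome, ran from 29.9 to 455 CPM in Kit-B6 tumors and from 87.1 to 227 in Kit-W/sh tumors. Its stage changes were -0.24 ± 0.66 (adjusted p = 0.787) and 1.24 ± 0.83 (adjusted p = 0.241).

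Summed macrophage and monocyte markers (8 of 13 on the list measured) moved with these ligands, from 1282 to 1384 CPM (Kit-B6) and 1333 to 1587 (Kit-W/sh) in preneoplastic colon to 1536 to 4088 and 2758 to 4400 in tumors. Neutrophil markers (4 of 9 measured) summed to 6.20 to 12.8 and 7.23 to 15.1 CPM in preneoplastic colon, where Mpo was at 0, and to 61.7 to 257 and 272 to 758 in Kit-B6 and Kit-W/sh tumors. Summed NK and cytotoxic cell markers (12 of 13 measured) moved with Ccl5 and Xcl1, from 325 to 533 and 416 to 666 CPM in preneoplastic colon to 108 to 236 and 119 to 398 in tumors, where Gzmk was at 0 in every Kit-B6 tumor. Not every macrophage or NK marker moved with its sum. Of 8 macrophage and monocyte markers tested, 4 were called higher and 1 lower in Kit-B6 tumors, and 6 and 1 in Kit-W/sh. Of 8 NK and cytotoxic markers tested, 0 were called higher and 4 lower in Kit-B6, and 1 and 3 in Kit-W/sh. Among all genes, 22.2% were called higher and 18.9% lower in Kit-B6, and 20.9% and 18.8% in Kit-W/sh. The part of these markers in the results was not tested. In bulk tissue, fewer cells of a type and less RNA per cell cannot be told apart.

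Xcl1, or lymphotactin, is made by NK and CD8 T cells and attracts cross-presenting dendritic cells through Xcr1, which was not analysed here. It read 88.0, 125 and 52.7 CPM in Kit-B6 and 95.9 and 88.1 in Kit-W/sh preneoplastic colon. In tumors it was 13.7, 18.3 and 23.7 in Kit-B6 and 1.83, 5.35 and 47.0 in Kit-W/sh (lowest, median, highest). No tumor reached the lowest preneoplastic sample of its genotype. Xcl1 fell by 2.25 ± 0.67 on the log2 scale in Kit-B6 (adjusted p = 0.0147) and fell by 2.87 ± 0.73 in Kit-W/sh (adjusted p = 0.00645). The value of 47.0 came from the library labelled Kit-W/sh tumor 2, and without it the Kit-W/sh change was -4.03 (adjusted p = 9.461e-05). The calls ended without Kit-B6 preneoplastic sample 2 (-1.91, adjusted p = 0.0682) and without Kit-W/sh preneoplastic sample 1 (-2.81, adjusted p = 0.0517).

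Cxcl12, the ligand of Cxcr4, is made steadily by fibroblasts and endothelium and holds leukocytes and progenitors in tissue. It was at 790.2, 356 and 662 CPM in Kit-B6 and 367 and 700.5 in Kit-W/sh preneoplastic colon, and at 188, 219.7 and 423 in Kit-B6 tumors against 146, 232 and 324 in Kit-W/sh tumors (lowest, median, highest). Kit-B6 tumor 6, at 423, was the only tumor above a preneoplastic sample. Cxcl12 fell in both genotypes, with log2 changes of -1.21 ± 0.31 in Kit-B6 (adjusted p = 0.00652) and -1.18 ± 0.35 in Kit-W/sh (adjusted p = 0.0158). Their difference was 0.03 ± 0.49. The calls ended without Kit-B6 preneoplastic sample 1 (-0.94, adjusted p = 0.0507) and without Kit-W/sh preneoplastic sample 2 (-0.63, adjusted p = 0.333). Summed stromal and endothelial markers (4 of 10 measured) spanned 1787 to 3515 and 1776 to 3506 CPM in preneoplastic colon. In tumors the sums were 2890 to 11629 and 4588 to 7399 CPM. Of these 4 markers, 2 were called higher and 1 lower in tumors of each genotype. Among all genes, 22.2% were called higher and 18.9% lower in Kit-B6, and 20.9% and 18.8% in Kit-W/sh. The part of these markers in the Cxcl12 values was not tested. Cxcr4 was not analysed here.

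Cx3cl1, or fractalkine, is a membrane-tethered ligand of epithelium and endothelium whose receptor Cx3cr1 marks resident gut macrophages. It read 1733, 711 and 789 CPM in Kit-B6 and 1271 and 1346 in Kit-W/sh preneoplastic colon, and 574, 692 and 1313 against 410.5, 614 and 848 in the tumors (lowest, median, highest). The Kit-W/sh groups did not overlap and the Kit-B6 groups did. Cx3cl1 fell by 1.07 ± 0.34 on the log2 scale in Kit-W/sh (adjusted p = 0.0199), a call lost without either preneoplastic sample (-1.11 to -1.02, adjusted p 0.104 to 0.112), and changed by -0.41 ± 0.30 in Kit-B6 (adjusted p = 0.279). It lies directly between Ccl22 and Ccl17 in RefSeq's gene table. Ccl17, which attracts Ccr4-bearing T helper 2 and regulatory T cells, had stage changes of 1.21 ± 0.53 (adjusted p = 0.0757) and 0.04 ± 0.56 (adjusted p = 0.957).

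Ccr10 guides IgA plasma cells to the colon by following Ccl28, which was not analysed here. It stood at 53.2, 67.1 and 126 CPM in Kit-B6 and 52.4 and 53.7 in Kit-W/sh preneoplastic colon. Kit-B6 tumors held 7.35, 19.1 and 50.3 (lowest, median, highest), all below every preneoplastic sample, and Kit-W/sh tumors 41.1, 72.2 and 119. Ccr10 fell by 1.89 ± 0.52 on the log2 scale in Kit-B6 (adjusted p = 0.00918), a call that ended without preneoplastic sample 3 (-1.44, adjusted p = 0.0726), and its value in Kit-W/sh was 0.47 ± 0.63 (adjusted p = 0.566). The difference between these changes was 2.36 ± 0.85 and did not pass (adjusted p = 0.66). Summed plasma cell markers (3 of 8 measured) ranged over 169 to 294 and 146 to 169 CPM in Kit-B6 and Kit-W/sh preneoplastic colon, and 109 to 356 and 169 to 491 in tumors. Of these 3, 1 was called lower in Kit-B6 tumors and 0 in Kit-W/sh, beside 18.9% and 18.8% of all genes. None was called higher, and 1 lay on the positive side in each genotype. Their median log2 changes were -1.97 and -0.89, and their part in the Ccr10 values was not tested.

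Cxcl15, or lungkine, is a neutrophil attractant known from lung epithelium, and RefSeq's gene table places it in 1 run with Cxcl5, Cxcl3, Cxcl1 and Cxcl2. It had 3 counts in all Kit-B6 preneoplastic libraries together and 120 in Kit-B6 tumors, a CPM ratio of 11.4 (exact 95% interval 3.80 to 55.9, counting error only). Kit-B6 tumor 5 alone held 62.7 CPM, and the other 5 held 11.6 or less. The fitted rise was 3.16 ± 1.21 on the log2 scale (adjusted p = 0.0466) and 1.89 (adjusted p = 0.112) without tumor 5. The call also ended without tumor 3 or any preneoplastic sample (adjusted p 0.0557 to 0.120 over the 5 libraries). In Kit-W/sh, Cxcl15 had 4 counts in preneoplastic colon and 120 in tumors. Its log2 change there was 2.30 ± 1.30 and did not pass (adjusted p = 0.167). The difference between the changes of the genotypes was -0.86 ± 1.78 (adjusted p = 0.957). Cxcr1, a neutrophil receptor beside Cxcr2 in the genome, had 0 counts in every preneoplastic library, and 26 counts in Kit-B6 and 44 in Kit-W/sh tumors, at least 2.46-fold and 2.53-fold higher against a floor of 3 counts over each preneoplastic group. Its stage test did not pass in Kit-B6 (adjusted p = 0.0611) or Kit-W/sh (adjusted p = 0.0600, and 0.0474 without the library labelled Kit-W/sh tumor 2).

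**Figure D3:**
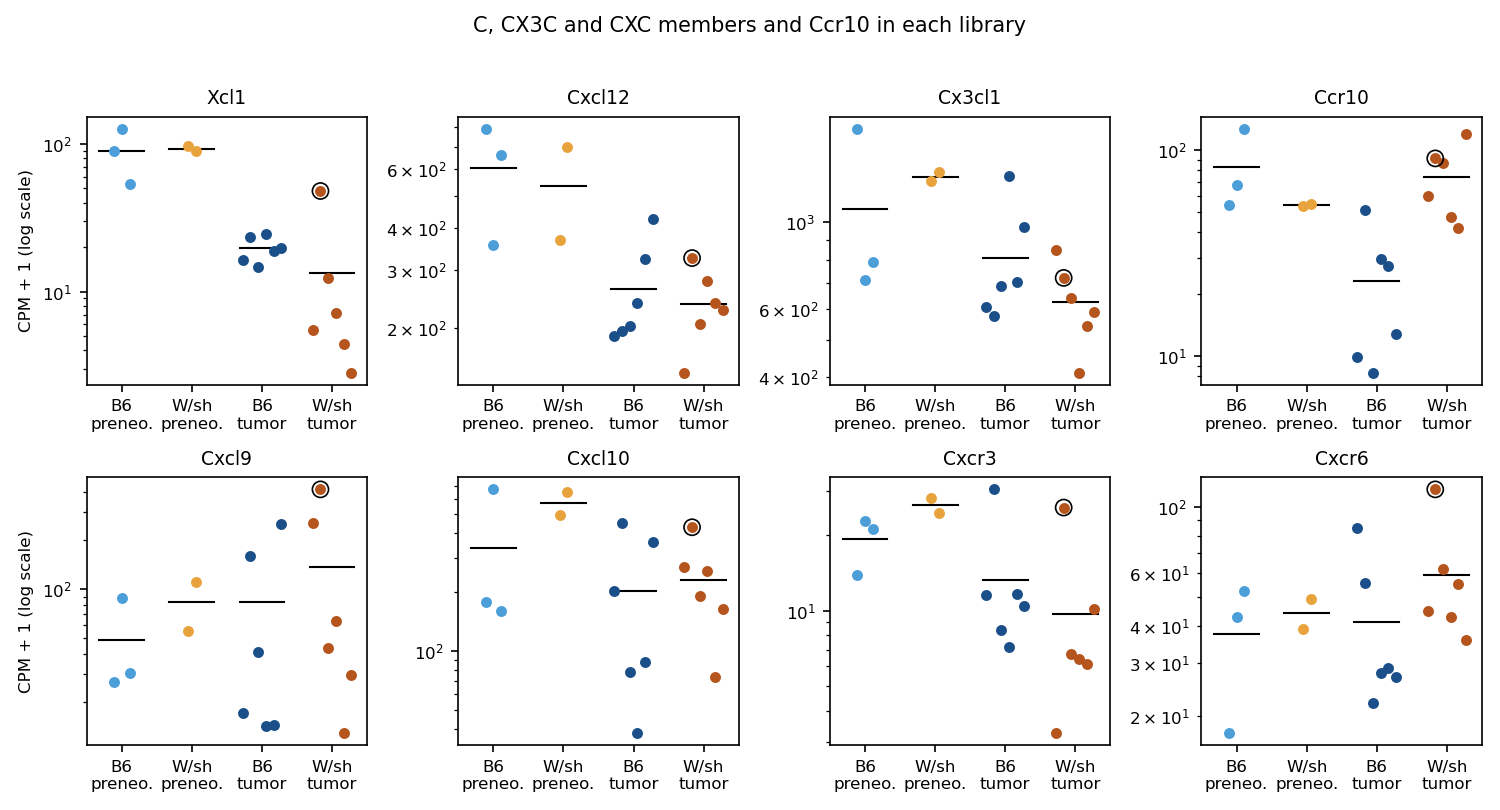
CPM + 1 on a log axis for Xcl1, Cxcl12, Cx3cl1, Ccr10, Cxcl9, Cxcl10, Cxcr3 and Cxcr6 in each library, by group, with group means as lines and a ring on the library labelled Kit-W/sh tumor 2. Xcl1 lies at 52.7 CPM or above in the 5 preneoplastic samples and at 47.0 or below in the 12 tumors.

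Upstream sequence was looked at for the genes that rose, fell or did not pass together. RefSeq's promoter table (GRCm38.p6) held 23 of the 33 genes in 28 windows, and the 250 bases before each start were searched on both strands. Of the 6 genes that passed in both genotypes, it held Ccl3, Cxcl12 and Xcl1, and not Ccl2, Ccl4 or Ccl5. The stretches below are Ccl3 as a gene that rose (chr11:83649379-83649498, minus strand), Cxcl12 and Xcl1 as genes that fell (chr6:117168415-117168534, plus strand, and chr1:164935523-164935642, minus strand) and Cxcl10 as an interferon-responsive gene that did not pass (chr5:92348950-92349109, minus strand). The first 3 end at the base before the start, and Cxcl10 covers 220 to 61 bases before it. Capitals mark motif matches.
Ccl3: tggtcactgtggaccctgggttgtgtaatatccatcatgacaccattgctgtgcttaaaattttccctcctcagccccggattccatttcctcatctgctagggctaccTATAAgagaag
Cxcl12: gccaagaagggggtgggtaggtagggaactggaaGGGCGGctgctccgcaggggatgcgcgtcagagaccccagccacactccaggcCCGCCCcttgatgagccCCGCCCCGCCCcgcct
Xcl1: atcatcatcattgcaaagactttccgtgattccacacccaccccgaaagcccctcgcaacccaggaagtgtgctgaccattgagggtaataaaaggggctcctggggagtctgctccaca
Cxcl10: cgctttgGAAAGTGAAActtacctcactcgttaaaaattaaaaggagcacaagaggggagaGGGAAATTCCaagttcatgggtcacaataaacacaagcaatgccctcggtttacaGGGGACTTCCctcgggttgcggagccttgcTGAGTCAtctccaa

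The capitals in Ccl3 are a TATA box (TATAA) whose first base lies 11 bases before the start. Those in Cxcl12 are GC boxes (GGGCGG, or CCGCCC on the other strand, 2 of which overlap). In Cxcl10 they are 1 interferon-stimulated response element (GAAA, any 2 bases, then GAAA), a pair of NF-kB sites (GGG, any 3 bases, then TTCC) and 1 AP-1 site (TGA, any base, then TCA). The printed Xcl1 stretch held no match. Of all 32851 windows in the table, 22.8% held the TATA box, 32.7% the GC box, 2.98% the interferon element, 4.65% the NF-kB site and 6.75% the AP-1 site. Among the 23 genes, 9, 3, 3, 3 and 3 held them in at least 1 window, a count by gene and not by window. A gamma-activated sequence (TTC, any 3 bases, then GAA) was in 7.02% of windows and in 3 of these genes. GC content over the 250 bases was 64.4% for Cxcl12 and 64.8% for Cx3cl1, 46.8% for Ccl3, 44% for Xcl1 and 48.0% for Cxcl10. A match describes these letters and is not a measured binding site.

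The interferon-induced ligands Cxcl9, Cxcl10 and Cxcl11 recruit activated T and NK cells through Cxcr3, and none of the 4 genes passed a stage test with all libraries. Cxcl10 was at 178, 669 and 159.6 CPM in Kit-B6 and 496 and 645 in Kit-W/sh preneoplastic colon. In tumors it was 37.0, 144 and 448 in Kit-B6 and 72.8, 223 and 428 in Kit-W/sh (lowest, median, highest). The Kit-W/sh groups did not overlap, with a log2 change of -1.31 ± 0.74 (adjusted p = 0.167), and the Kit-B6 change was -0.74 ± 0.67 (adjusted p = 0.383). Cxcr3 changed by -1.52 ± 0.68 (adjusted p = 0.0859) in Kit-W/sh and by -0.60 ± 0.63 (adjusted p = 0.454) in Kit-B6. Without the library labelled Kit-W/sh tumor 2, which held 24.7 CPM of Cxcr3, the Kit-W/sh change was -2.17 and passed (adjusted p = 0.00752). Cxcl9 ranged from 12.0 to 412 CPM over the tumors, and its changes were 0.79 ± 1.14 in Kit-B6 and 0.71 ± 1.30 in Kit-W/sh. The tumor at 412 was the same library, and without it the Kit-W/sh change was -0.04 (adjusted p = 0.979). Cxcr6, the receptor of resident T cells, changed by 0.13 ± 0.51 in Kit-B6 and 0.43 ± 0.59 in Kit-W/sh.

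Cxcl13 and its receptor Cxcr5 bring B cells into follicles, Ccl19 and Ccr7 bring T cells and dendritic cells into lymphoid tissue, and Ccr6 guides B cells and T helper 17 cells to mucosal follicles. None passed a stage test in either genotype, and the samples of a group differed widely. Cxcr5 read 20.2, 252 and 74.4 CPM in Kit-B6 and 23.5 and 11.0 in Kit-W/sh preneoplastic colon. In tumors it read 0, 2.23 and 109 in Kit-B6 and 0.755, 3.62 and 11.6 in Kit-W/sh (lowest, median, highest). Cxcl13 read 130.2, 869 and 330.1 in Kit-B6 and 88.6 and 110.1 in Kit-W/sh preneoplastic colon, and 30.7, 128 and 359 against 23.6, 88.6 and 167 in tumors. Kit-B6 preneoplastic sample 2 was the highest of all 17 for Cxcl13, Cxcr5, Ccl19 (68.9) and Ccr6 (134), and Kit-B6 tumor 2 was the highest tumor for the same genes. Summed B cell markers (8 of 11 measured) spanned 152 to 2915 CPM in Kit-B6 preneoplastic colon, 151 to 327 in Kit-W/sh preneoplastic colon, 32.9 to 800.1 in Kit-B6 tumors and 18.1 to 122 in Kit-W/sh tumors. Their part in these values was not tested.

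**Figure D4:**
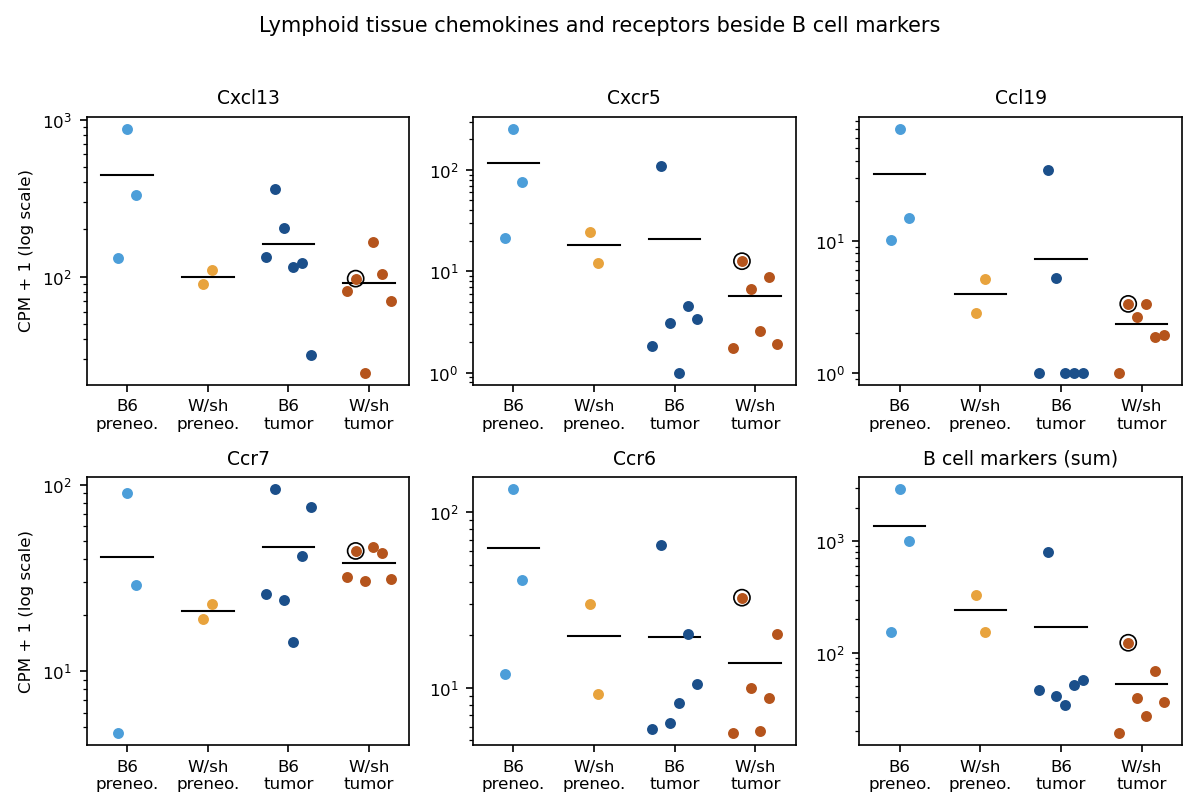
CPM + 1 on a log axis for Cxcl13, Cxcr5, Ccl19, Ccr7, Ccr6 and the sum of 8 B cell markers in each library, by group, with group means as lines and a ring on the library labelled Kit-W/sh tumor 2. One Kit-B6 preneoplastic sample, at 252 CPM for Cxcr5, and one Kit-B6 tumor, at 109, stand above the rest of their groups.

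Between genotypes within tumors, 0 of 23 chemokine genes passed edgeR's test, as did 0% of all genes. At an unadjusted p under 0.05, 4 did (Ccl4, Ccr10, Ccl3 and Ccl2, all higher in Kit-W/sh), which is beside 13.6% of all genes. DESeq2 called 2, Ccl4 (2.03, adjusted p = 0.00783) and Ccr10 (1.71, adjusted p = 0.0171), beside 2.30% of all genes. The log2 differences, Kit-W/sh minus Kit-B6, were 2.05 ± 0.51 for Ccl4 and 1.71 ± 0.48 for Ccr10 (edgeR adjusted p = 0.154 for each), 1.55 ± 0.52 for Ccl3 (adjusted p = 0.227) and 1.19 ± 0.54 for Ccl2 (adjusted p = 0.363). Ccl4 was the 1 gene of the family whose 12 tumors separated by genotype, as 0.626% of all genes did: its lowest Kit-W/sh tumor (84.5 CPM) exceeded the highest Kit-B6 tumor (79.0). For Ccr10 and Ccl3, all 6 Kit-W/sh tumors lay above the Kit-B6 median, and the groups overlapped. Leaving out each library kept the Ccl4 difference between 1.64 and 2.25 (adjusted p 0.0517 to 0.349). Without the library labelled Kit-W/sh tumor 2 it was 2.17 (adjusted p = 0.0517).

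The next smallest p-values in tumors belonged to Ccr9, the small-intestinal homing receptor, at 0.79 ± 0.41 (adjusted p = 0.417), and to Ccl7 at 1.19 ± 0.66 (adjusted p = 0.448). Ccr9 peaked at 39.3 CPM in the tumor carrying that label, Kit-W/sh tumor 2, and had a difference of 0.34 (adjusted p = 0.602) without it. Ccl7 had a difference of 0.43 (adjusted p = 0.792) without Kit-W/sh tumor 3. Ccr2, the receptor of Ccl2 and Ccl7, differed by -0.02 ± 0.41 (adjusted p = 0.985). Ccl25, the ligand of Ccr9, differed by -0.07 ± 0.42. Summed neutrophil markers separated the same groups, at 61.7 to 257 CPM in Kit-B6 and 272 to 758 in Kit-W/sh tumors, and summed macrophage markers overlapped at 1536 to 4088 and 2758 to 4400. Their part in the Ccl3 and Ccl4 values was not tested.

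In preneoplastic colon, with 3 samples against 2, 0 of 20 genes passed edgeR's test, beside 0.129% of all genes, and DESeq2 called 0, beside 2.47%. At an unadjusted p under 0.05 there were 3, beside 10.7% of all genes. These were Ccl2, at 1.14 ± 0.39 (adjusted p = 0.443), Cxcl13, at -2.17 ± 0.79 (adjusted p = 0.443), and Cxcr5, at -2.78 ± 1.11 (adjusted p = 0.461), Kit-W/sh minus Kit-B6. The groups did not overlap for Ccl2 and Cxcr3 (higher in Kit-W/sh) and Cxcl13 (lower), 3 of 20 genes beside 29.7% of all genes (16.3% higher and 13.4% lower). The values of Ccl17, Ccl5 and Ccl11 were 1.57 ± 0.72, 0.85 ± 0.42 and -1.12 ± 0.67. These values moved with single libraries. Leaving out each in turn gave -2.61 to -1.24 for Cxcl13, -3.41 to -1.52 for Cxcr5 and 0.77 to 1.41 for Ccl2, and 0.98 to 2.59 for Ccl17, 0.27 to 1.24 for Ccl5 and -2.16 to -0.57 for Ccl11. The ligand Cxcl13 and its receptor Cxcr5 lay on the same side, in the samples whose B cell marker sums are given above.

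**Figure D5:**
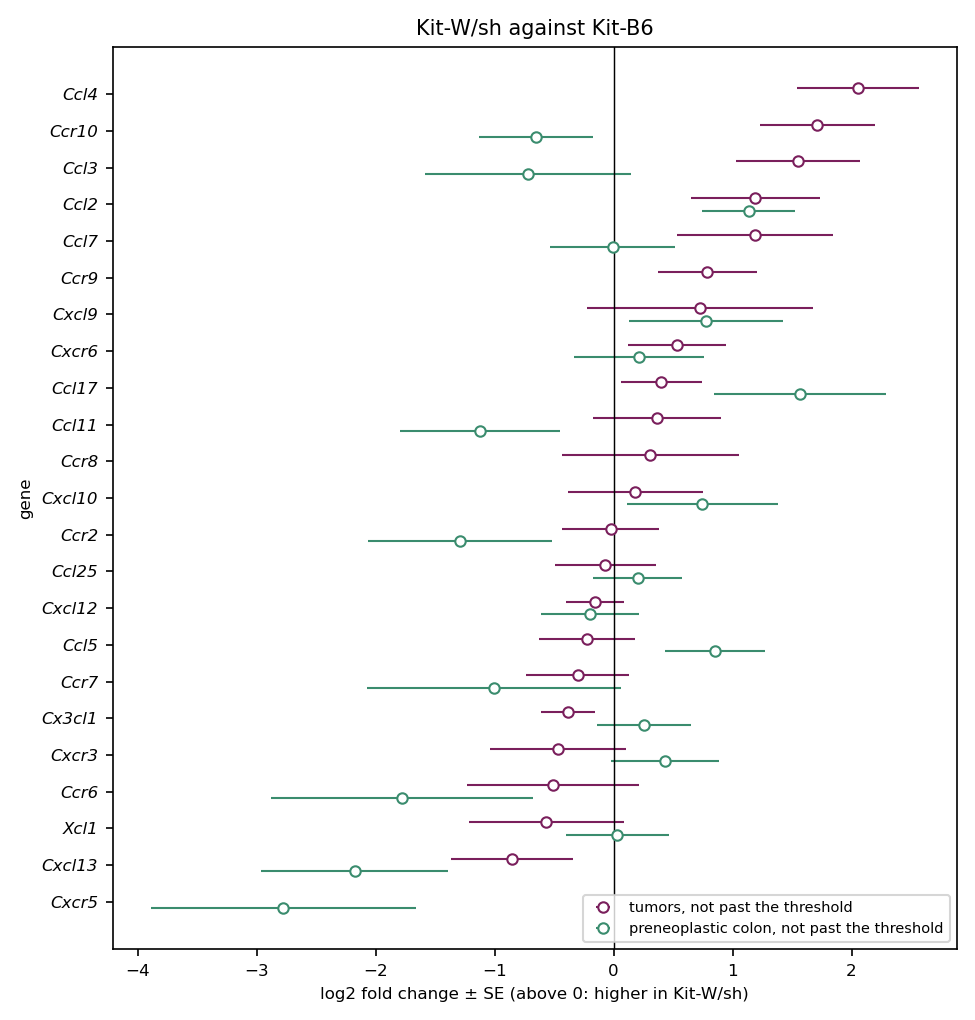
Log2 difference, Kit-W/sh minus Kit-B6, of chemokine genes tested (y axis), with bars of 1 standard error, in tumors and in preneoplastic colon. No point is filled, since none passed the threshold, and Ccl4 in tumors lies at 2.05.

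No chemokine gene passed the test of whether the genotype difference changed with stage, 0 of 29 beside 0% of all genes, and DESeq2 called 0, beside 0.104%. At an unadjusted p under 0.05 there were 2, Ccr10 and Ccl4, beside 7.25% of all genes. Genes called in 1 genotype alone, such as Ccr2 (difference of changes 1.28 ± 0.90), Ccl7 (1.18 ± 1.19) and Cx3cl1 (-0.65 ± 0.47), are therefore not shown to differ between genotypes.

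By role, the inflammatory CC ligands (9 measured, 7 tested) had 3 higher and 1 lower in Kit-B6 tumors than in preneoplastic colon, with a median log2 change of 1.71, and 4 higher and 1 lower in Kit-W/sh, with a median of 2.43. Among all genes tested, 22.2% were called higher and 18.9% lower in Kit-B6 with a median of 0.00, and 20.9% and 18.8% in Kit-W/sh with a median of 0.08. The 4 CXC receptors had none called, beside those shares. Of 30 ligand and receptor pairs listed, 14 had both genes measured. In Kit-W/sh, Ccl2 and Ccl7 were called in the same direction as Ccr2, while in Kit-B6 Ccl2 passed and Ccr2 did not. For the pairs Cxcl13 with Cxcr5, Ccl19 with Ccr7, Ccl25 with Ccr9, Ccl17 with Ccr4 and Cxcl9, Cxcl10 and Cxcl11 with Cxcr3, neither gene passed in either genotype.

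Related genes were read for context, against the same shares of all genes called (41.1% in Kit-B6 and 39.7% in Kit-W/sh). Of 10 measured CXCR2 ligands, atypical receptors and other leukocyte attractants, 9 were higher and 1 lower in Kit-B6 tumors than in preneoplastic colon, and 9 were higher and none lower in Kit-W/sh. Of 10 genes of leukocyte adhesion and chemokine receptor signalling, 4 in Kit-B6 and 5 in Kit-W/sh were higher and none lower. Icam1, the endothelial ligand of leukocyte integrins, was among them (2.40 ± 0.41 and 2.67 ± 0.49, adjusted p = 0.000313 and 0.000772). So was Itgb2, the shared integrin chain (1.48 ± 0.38 and 2.52 ± 0.49, adjusted p = 0.00656 and 0.00115). Among 17 tested interferon and NF-kB regulators, 5 were higher and 6 lower in Kit-B6, and 3 and 5 in Kit-W/sh. Irf1, an interferon-induced transcription factor, fell, with log2 changes of -1.28 ± 0.22 and -1.77 ± 0.25 (adjusted p = 0.000419 and 0.000136), beside the Cxcl10 values above.

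Some genes were close to the counting limit. Ccl1 (81 counts over the 17 libraries), Cxcl14 (13), Ccl22 (8) and Ccl27b (6) were never tested, and Ccl27b and Ccl19 belong to a locus with near-identical copies, so their amplicons are uncertain. In Kit-W/sh, Ccl1 had 50 counts in tumors and 0 in preneoplastic colon, but the library labelled Kit-W/sh tumor 2 held 37 of the 50 (28.5 CPM). Against a floor of 3 counts over the preneoplastic group, tumors were at least 2.88-fold higher with that library, and without it the 13 counts left set no such bound (0.908-fold). Ccr8, the receptor of Ccl1 on regulatory and T helper 2 cells, had 99 counts against 2, a CPM ratio of 8.55 (exact 95% interval 2.31 to 71.6, counting error only), with an edgeR adjusted p of 0.0996. The ratio was 6.39 (1.69 to 54.0) without the library labelled Kit-W/sh tumor 2. Ccr4 lay between 0 and 13.1 CPM. Ccl25, which was not near that limit, lay between 27.9 and 177 CPM over all samples.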

How the data were processed

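RNA of 17 colon samples from azoxymethane-treated mice was read on a MiSeq after multiplex PCR with a targeted immuno-oncology panel for mouse (QIAseq), according to the labels. The authors deposited 1 table of whole-number counts for each sample, and the files do not say whether reads or unique molecules were counted. The submitters' processing notes name the mm9 build and DESeq2, and the aligner and filters are not given in the sources used here. Each table had 993 entries, of which 5 genomic DNA control amplicons had 0 counts and were left out.

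Counts of all 988 genes were tested with edgeR 4.0.16 in R 4.3.3 (TMM scaling, filterByExpr with minimum count 10 and minimum total 15, quasi-likelihood F test with robust dispersions, two-sided, Benjamini-Hochberg over all genes tested, threshold 0.05). Genotypes were compared within a stage (799 genes tested in tumors, 777 in preneoplastic colon). Stages, and the genotype-by-stage interaction, were tested in 1 fit of all 17 libraries (869 genes), where the groups share 1 estimate of spread. Of the 33 chemokine genes, 23, 20 and 29 passed the filter. Levels are CPM after TMM scaling over all libraries, and a standard error is the log2 fold change divided by the root of F. Alternatives were DESeq2 1.42.0, other scalings, no filter, a replicate block, other sets of libraries in the fit, and each library left out. The code was tested on simulated counts. No library was a copy of another in its group (lowest chi-square per degree of freedom 13.0).

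The genes and lists were chosen with earlier results of these data known. Values are given for genes past the threshold in any comparison, the 6 smallest p-values of each genotype comparison and their ligand or receptor partners, and related genes are named from the 3 smallest p-values per list. Cxcl10, Cxcr6, Cxcl14, Ccl22, Ccl27b, Ccl1, Ccr8, Ccl19, Ccr7, Ccr6, Cxcl9, Cxcl11, Cxcr3 and Cxcr1 were added after their values were seen. Some results are not reported here. The motif letters were set after the sequences were seen. The RefSeq tables are of GRCm38.p6, not mm9, and were used for sequences and neighbours. Intervals and floors cover counting error only, since PCR copies of a molecule are not independent.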

Additional observations from a re-analysis of the deposited data

Results flagged for a closer look

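In 58 combinations of 1 of the 29 chemokine genes tested and a group of 6 tumors, 18 (31%) had 1 tumor whose gap to the next exceeded 0.625 of the group's range. Over all genes tested 14.4% did. The limit flags about 1 in 20 groups by chance only where values are normally distributed, which was not checked for CPM. The library labelled Kit-W/sh tumor 2 was that tumor for 6 genes: Xcl1 (47.0 CPM, next 11.4), Cxcr6 (113, next 61.1), Ccl25 (94.8, next 65.2), Ccr9 (39.3, next 18.1), Cxcr3 (24.7, next 9.16) and Ccr4 (13.1, next 5.70). Ccl1, which was never tested and is not among the 58, also stood highest there (28.5, next 3.09). The other far Kit-W/sh values were Ccl7 in tumor 3 (4468, next 1623) and Ccl3 in tumor 5 (1266, next 588).

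Kit-B6 tumor 2 stood far above its group for 5 genes of lymphocyte traffic: Cxcr5 (109 CPM, next 3.56), Ccr6 (64.2, next 19.2), Ccl19 (33.5, next 4.20), Cxcr3 (29.3, next 10.7) and Ccl5 (134, next 57.0). Kit-B6 tumor 5 did for Ccl25 (177, next 56.7), Cxcl15 (62.7, next 11.6) and Cxcr1 (12.1, next 3.23), and Kit-B6 tumor 6 for Ccl11 (455, next 93.4). Kit-B6 tumor 4 stood far below for Ccr2 (8.23, next 25.9).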

How the results depend on the processing

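The genes past the threshold and the 6 smallest p-values of each genotype comparison kept their direction in every alternative run. The other chemokine genes were followed only without the library labelled Kit-W/sh tumor 2, an alternative chosen after seeing the data, and it turned 7 values, none of them called: between tumors Cxcl9 (0.73 to -0.052), Cxcl10 (0.18 to -0.11) and Ccr8 (0.31 to -0.11), by stage in Kit-W/sh Cxcl9 (0.71 to -0.044) and Ccl17 (0.039 to -0.074), and in the interaction Cxcl12 (0.027 to -0.087) and Cxcr6 (0.30 to -0.0061). DESeq2 called 2 chemokine genes between genotypes in tumors (edgeR 0). Over all genes it called 21 there, 20 in preneoplastic colon and 1 in the interaction (edgeR 0, 1 and 0). Leaving out 1 library kept the genotype counts at 0, and moved the stage count between 3 and 12 in Kit-B6 (8 with all) and between 3 and 11 in Kit-W/sh (10 with all), the fewest without Kit-B6 preneoplastic sample 3 or Kit-W/sh preneoplastic sample 1 and the most in Kit-B6 without tumor 2. With a replicate block the Kit-B6 stage count was 5 and the Kit-W/sh count 7. Same-numbered samples deviated together in some cases and not in others. Correlations were -0.19 to 0.39 for 6 tumor pairs, with 2 of 6 best matched to their own number. Of 3 Kit-B6 stage pairs, 1 was, tumor 2 with preneoplastic sample 2 (0.395). With so few pairs the check cannot settle whether the numbers pair the samples, which were treated as unpaired. Unscaled library totals shifted the median of all genes by 0.25 (log2) and made 73.0% and 70.1% of all stage calls higher in tumors, against 54.1% and 52.8%. Stage counts stayed within 1.5 times under DESeq2, the other scalings, no filter and fits of 1 genotype alone. DESeq2 gave no adjusted p to 5 and 8 chemokine genes in tumors and in preneoplastic colon. The causes were not tested. Several receptors lay under 10 CPM, where 3 counts came to between 2.14 and 5.50 CPM.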
